A study of Mus musculus with 9 samples.

Results

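The comparison described here asks what 10 Gy of radiation added to R788 + anti-PDL1 in large neuroblastoma tumors. It takes 6 of the 9 tumors of the series, chosen by the treatment label alone: 3 labelled Rad + R788 + anti-PDL1, called irradiated tumors, and 3 labelled R788 + anti-PDL1, called drug-only tumors. The other 3 tumors received vehicle, and their values are set beside the rest for reference. Whole tumors grown from the line NB9464 under the skin of C57BL/6 mice of WT genotype were profiled by RNA-seq of polyA-enriched RNA. Each mouse was implanted with NB9464 cells, and treatment began at a tumor volume of 250 mm3. R788, given at 50 mg/kg 5 times a week, is converted in the body to an inhibitor of Syk kinase, and anti-PDL1, given 4 times a week, is an antibody against PD-L1, the product of Cd274. All 6 tumors compared therefore carried both drugs, and the groups differed by the radiation. The series text lists 4 doses between day 28 and day 37 without saying which agent they refer to. The labels give no age of the mice, no time between radiation and harvest, and no statement that each tumor came from a separate mouse, so the p-values below measure the spread between these tumors. Tumors given radiation alone were not analysed here.

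Ionizing radiation breaks DNA, and cells answer through kinases such as ATM and through p53, which induces the cell cycle inhibitor Cdkn1a and its own antagonist Mdm2. Fragments of damaged DNA in the cytosol can switch on interferon genes through the adaptor STING, and dying tumor cells can draw in T cells and myeloid cells. Neuroblastoma cells are known for a noradrenergic state, run by factors such as Hand2, and a mesenchymal state with Prrx1 and vimentin.

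Total counts ranged from 18276683 to 20402165 in the irradiated libraries and from 21577912 to 23397886 in the drug-only libraries. Levels are given in CPM, the counts of a gene relative to the size of its library, scaled by TMM, which equalizes libraries on the bulk of their genes. A count of 0 allows up to 3 counts, or 0.115 to 0.221 CPM on this scale, and this floor covers counting error only. Irradiated replicate 1 stood apart from the other 8 libraries. Its log2 CPM correlated with theirs at r = 0.865 to 0.907 across genes, against 0.937 to 0.98 among those 8, and mitochondrially encoded genes took 1.97% of its counts against 3.48% to 5.71%. Expression in this tumor also varied with gene length. Genes in the class with the shortest exon length (127 to 2500 bases) lay at a median of 0.77 above the drug-only mean on the log2 scale, and those in the longest class (6398 to 123179 bases) at -0.77. The other irradiated tumors lay at 0.1 and 0.16 for short genes and at -0.08 and -0.08 for long genes. The part of RNA quality in these results was not tested. Some results that rest on irradiated replicate 1, or on irradiated replicate 3, which held the most immune transcripts, are given with and without that tumor. Other genes may also rest on 1 of these tumors, as the values of each tumor show.

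**Figure D1:**
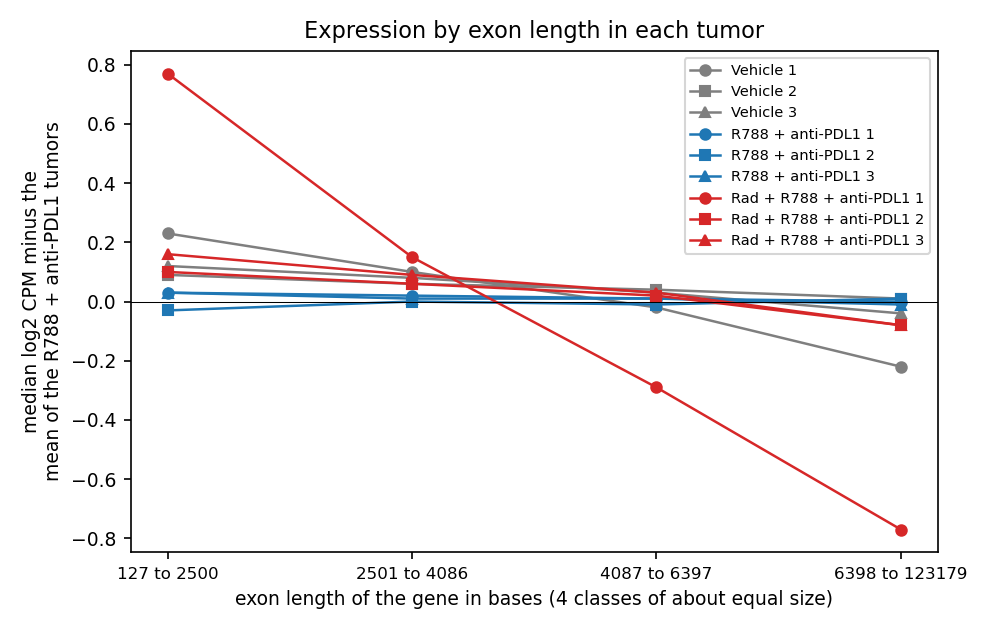
The y axis shows, for each tumor, the median over genes of the log2 CPM minus the mean of the drug-only tumors, and the x axis shows 4 classes of exon length in bases. Irradiated replicate 1 runs from 0.77 for the shortest genes to -0.77 for the longest, while the other 8 tumors stay between -0.22 and 0.23.

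Most defining markers of neuroblasts were absent from all 9 libraries. Th and Elavl4 had 0 counts in each of them, and Phox2a, Dbh and Alk had 0 to 3 counts. Mycn itself was present, with 93.3, 130.0 and 141 CPM in irradiated replicates 1 to 3 and 194, 127 and 250 CPM in the drug-only tumors. Hand2, a factor of sympathetic neuroblasts, was also present, at 867, 560.0 and 472 CPM against 430.0, 493 and 442 CPM. Only 13 of 29 noradrenergic genes had enough counts for a test, so the label of the line was kept but that state was described by these genes alone.

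Of 15931 genes tested with edgeR's quasi-likelihood test, 1 passed a Benjamini-Hochberg adjusted p of 0.05, which is 0.00628% of them. This gene was Tes, and it rose. An unadjusted p under 0.05 was obtained for 1866 genes with higher values in the irradiated tumors (11.7%) and for 1060 genes with lower values (6.65%). The 3 irradiated tumors lay above the 3 drug-only tumors at 2268 genes (14.2%) and below them at 2097 genes (13.2%). DESeq2 called 494 genes higher (3.1%) and 329 lower (2.07%) on the same counts. Of these 823 genes, 799 had groups that did not overlap. Without irradiated replicate 1, DESeq2 called 466 genes higher (2.8%) and 399 lower (2.4%), and 566 of the 823 genes were called both times. Without the same tumor, edgeR called 21 genes (0.126%), as described below.

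Irradiated replicate 1 was the highest of the 3 irradiated tumors at 1592 of the 1866 genes with higher values and the lowest at 905 of the 1060 genes with lower values. Over all genes tested it was the highest at 40.4% and the lowest at 49.6%. The size of these changes thus came from irradiated replicate 1 to a large extent. At 1565 of the 1866 and 928 of the 1060 the groups did not overlap, beside 14.2% higher and 13.2% lower over all genes tested. These genes were selected by p on the same values, which favors such separation, so the counts are a description. When the trend with exon length was removed from each library, edgeR again called Tes alone, with 2945 unadjusted p-values under 0.05.

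**Figure D2:**
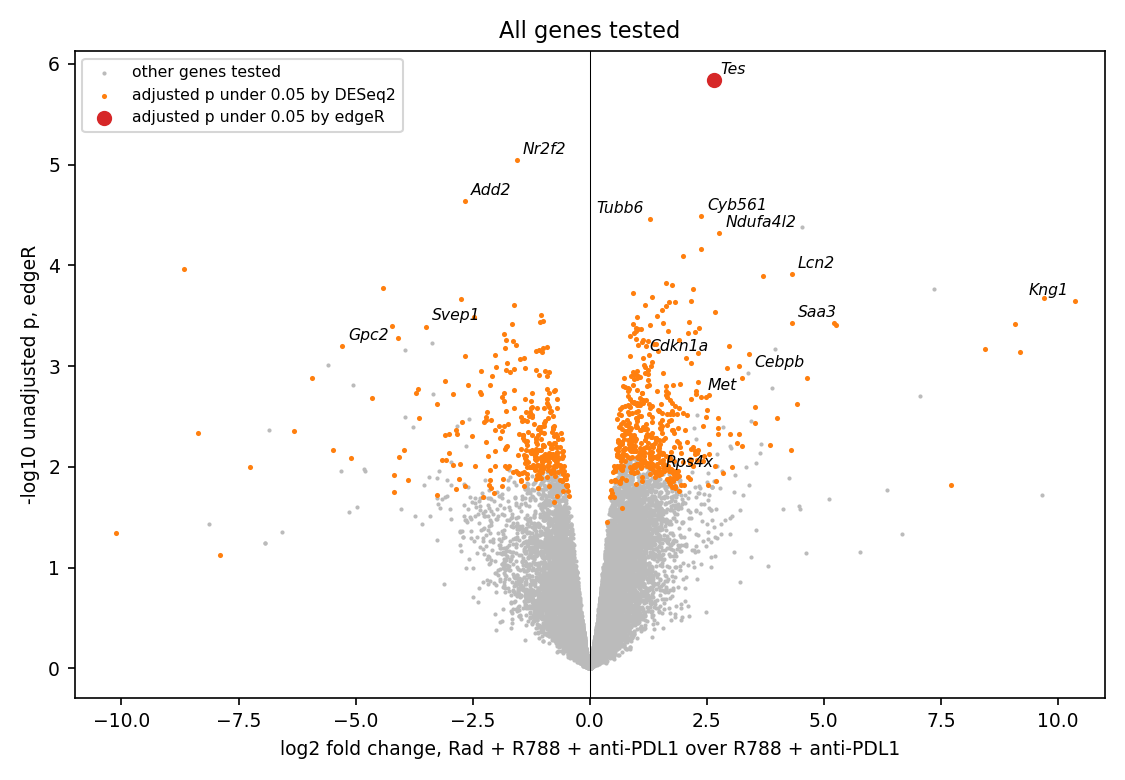
Each point is 1 of the 15931 genes tested, with the log2 fold change of the irradiated over the drug-only tumors on the x axis and the -log10 of the unadjusted edgeR p on the y axis. Tes is the gene called by edgeR, and Nr2f2 and Add2 have the lowest p-values among genes with lower values. Log2 fold changes beyond 5 in either direction mostly belong to genes near 0 counts in a group and depend on the prior count.

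Tes encodes testin, a LIM domain protein of focal adhesions and the actin cytoskeleton. It lies on chromosome 6 from 17065149 to 17105828 (GRCm38, plus strand, ENSMUSG00000029552.19). Its level was 38.9, 37.6 and 40.2 CPM in irradiated replicates 1 to 3 and 7.32, 4.43 and 6.76 CPM in the drug-only tumors. The irradiated tumors lay far above the drug-only tumors and close to each other, irradiated replicate 1 included. Tes rose by 2.66 ± 0.25 on the log2 scale (SE, n = 3 tumors a group), or 6.32-fold, with an adjusted p of 0.0232 by edgeR. The vehicle tumors had 3.37, 2.65 and 2.69 CPM, below all drug-only tumors. Over 21 alternative settings its log2 fold change ranged from 2.46 to 2.87 and its adjusted p from 5.86e-22 to 0.295, with 12 calls. When each of the 9 libraries was dropped in turn, its call held in 2 fits, those without irradiated replicate 1 and without vehicle replicate 1, and was lost without each of the other 7.

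The genes Cav2, Cav1 and Met follow Tes on the same strand within 509 kb. Cav1 and Cav2 encode caveolins, the coat proteins of caveolae, and Met encodes the receptor of hepatocyte growth factor. Cav1 (17306335 to 17341452) had 30.9, 67.3 and 54.7 CPM in the irradiated tumors, 16.4, 20.8 and 18.4 CPM in the drug-only tumors and 5.02, 4.36 and 6.41 CPM in the vehicle tumors. Cav2 (17281185 to 17289115) had 18.5, 31.7 and 32.2 CPM against 9.57, 12.9 and 11.1 CPM, with 2.98, 2.34 and 3.12 CPM under vehicle. Met (17463800 to 17573980) had 21.8, 32.1 and 30.0 CPM against 7.67, 2.18 and 6.31 CPM, with 0.11, 0.359 and 0.822 CPM under vehicle. At all 4 genes the 3 treatment groups did not overlap, and the order was vehicle, drug-only, irradiated. The log2 fold changes of Cav1, Cav2 and Met between the treated groups were 1.46 ± 0.30, 1.30 ± 0.28 and 2.38 ± 0.56, and their adjusted p-values of 0.136, 0.156 and 0.179 did not pass. Without irradiated replicate 1, which had the lowest value of the 3 irradiated tumors at Cav1, Cav2 and Met, Cav1 and Cav2 passed (1.72 ± 0.20, adjusted p = 0.0186, and 1.52 ± 0.21, adjusted p = 0.0489). Across the alternatives tried, adjusted p-values of Cav1 lay between 3.09e-11 and 0.528 and those of Cav2 between 5.5e-08 and 0.528.

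The other 3 tested genes within 1 Mb of these 4 had values that overlapped between the groups. Capza2, a capping protein of actin filaments, had 108, 134 and 157 CPM against 156, 144 and 150 CPM. St7 had 25.5, 15.1 and 14.2 CPM against 13.8, 15.1 and 12.3 CPM, and Tfec, a transcription factor of macrophages, had 1.25, 0.406 and 2.92 CPM against 1.32, 0.994 and 1.31 CPM. Their log2 fold changes were -0.17, 0.41 and 0.34.

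**Figure D3:**
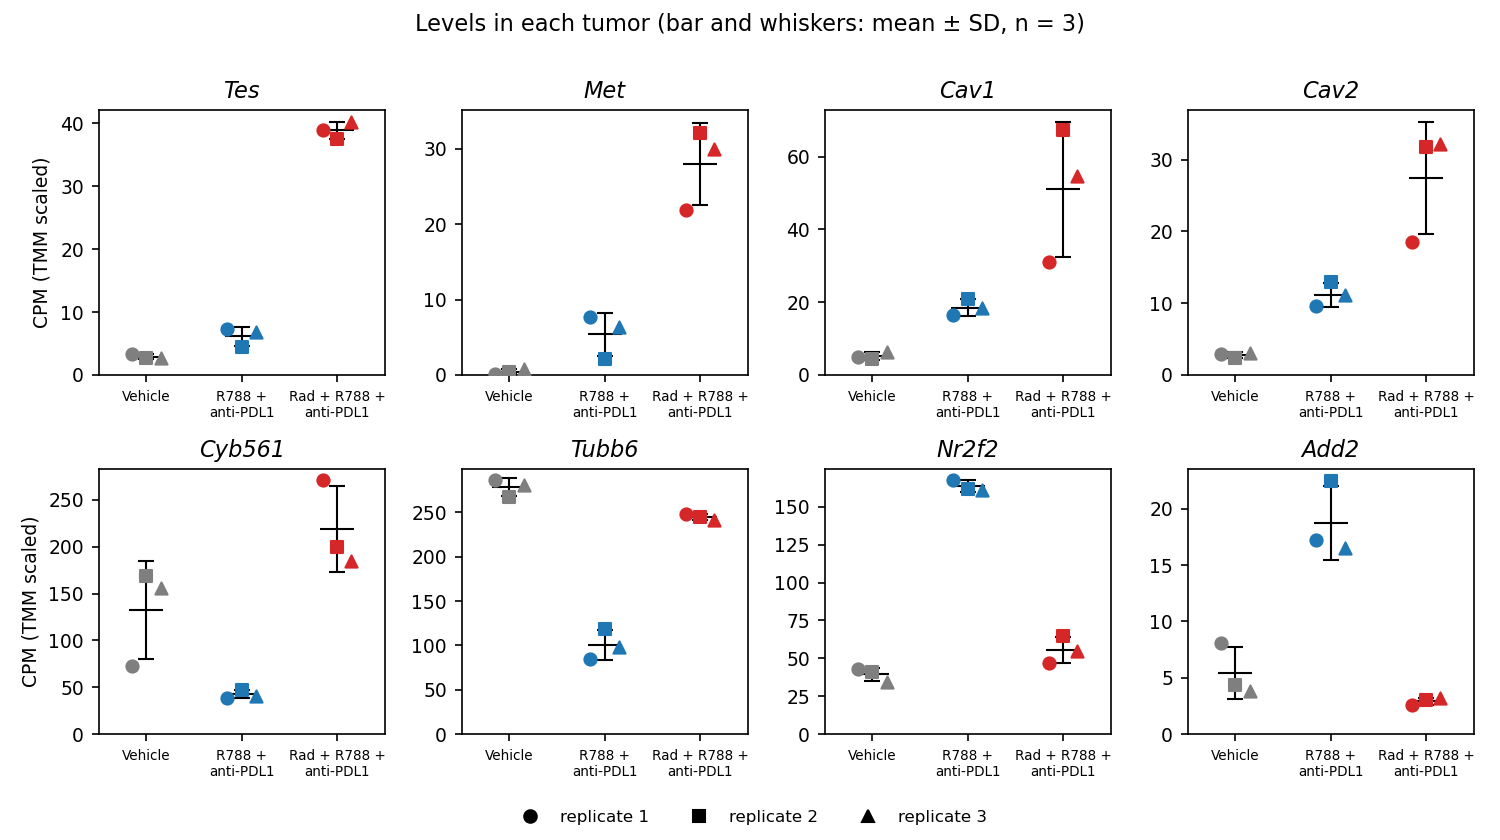
Each panel shows the CPM of a gene in the 9 tumors, with the mean and SD of each group of 3. Tes, Met, Cav1 and Cav2 step up from vehicle to drug-only to irradiated tumors, Cyb561 and Tubb6 are lowest in the drug-only tumors, and Nr2f2 and Add2 are highest there.

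The 250 bases before each start site of these 4 neighbours are shown because their levels moved together, so that the sequence can be read beside the values. They come from RefSeq on GRCm38.p6, run 5′ to 3′ on the plus strand, and hold capitals where a motif was found on either strand. The motif bound by AP-1 factors such as Fos and Jun was searched as TGANTCA. The E-box was searched as CACGTG and the GC box as GGGCGG, and the fourth motif was the box CCAAT, known from many promoters. No match overlapped another. Cav1 has 2 start sites in the table, and the upstream one is shown.
Tes (chr6:17064899-17065148): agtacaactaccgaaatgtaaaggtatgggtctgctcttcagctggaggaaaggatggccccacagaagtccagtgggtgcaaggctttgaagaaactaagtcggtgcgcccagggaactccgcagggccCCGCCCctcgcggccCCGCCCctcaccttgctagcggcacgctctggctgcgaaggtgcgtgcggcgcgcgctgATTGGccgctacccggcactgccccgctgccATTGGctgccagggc
Cav2 (chr6:17280935-17281184): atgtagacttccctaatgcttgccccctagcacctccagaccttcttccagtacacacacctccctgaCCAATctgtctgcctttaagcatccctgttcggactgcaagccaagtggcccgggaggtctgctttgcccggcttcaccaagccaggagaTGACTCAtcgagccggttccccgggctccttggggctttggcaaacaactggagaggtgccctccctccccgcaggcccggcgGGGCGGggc
Cav1 (chr6:17306085-17306334): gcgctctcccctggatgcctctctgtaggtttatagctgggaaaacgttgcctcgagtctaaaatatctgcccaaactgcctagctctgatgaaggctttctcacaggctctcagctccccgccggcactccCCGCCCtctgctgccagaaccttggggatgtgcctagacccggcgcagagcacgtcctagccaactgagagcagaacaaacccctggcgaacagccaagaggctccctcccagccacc
Met (chr6:17463707-17463956): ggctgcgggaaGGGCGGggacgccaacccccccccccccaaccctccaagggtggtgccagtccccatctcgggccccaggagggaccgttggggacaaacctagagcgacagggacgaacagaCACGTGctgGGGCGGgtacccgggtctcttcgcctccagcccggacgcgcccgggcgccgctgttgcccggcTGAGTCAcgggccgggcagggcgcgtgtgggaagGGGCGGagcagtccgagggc

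A TGANTCA match began 92 bases before the RefSeq start of Cav2 and 54 bases before that of Met. Of all 32851 RefSeq windows of this length, 6.75% held such a match. The window of Met also held a CACGTG match (6.02% of all windows). The RefSeq start of Met lies downstream of the GENCODE start given above (17463800). Part of its window, with the TGANTCA and CACGTG matches, thus lies within the gene as placed above. GGGCGG matches were present at all 4 genes (32.7% of all windows) and CCAAT matches at Tes and Cav2 (33.8%). These are matches of letters in a short window, and binding was not measured.

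When irradiated replicate 1 was left out, 21 genes passed the edgeR test, 20 of them with higher values in the irradiated tumors. Apart from Tes, Cav1 and Cav2 they serve varied functions, and in 19 of the 21 all 3 irradiated tumors still lay on the same side of the drug-only tumors. Nr2f2, a nuclear receptor also known as COUP-TFII, was the gene with lower values. It had 47.2, 64.5 and 54.7 CPM in the irradiated tumors and 168, 162 and 161 CPM in the drug-only tumors, where its values were close to each other. The vehicle tumors had 42.7, 41.2 and 34.6 CPM, so the drug-only tumors stood above both other groups. Its log2 fold change was -1.56 ± 0.18 with all tumors (adjusted p = 0.0724) and -1.45 ± 0.14 without irradiated replicate 1 (adjusted p = 0.0154).

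Tubb6, a beta tubulin, had nearly equal values in the irradiated tumors, 248, 245 and 242 CPM, against 85.2, 119 and 97.9 CPM in the drug-only tumors. The vehicle tumors had 287, 268 and 281 CPM, again on the side of the irradiated tumors. Cyb561, an electron transporter of secretory vesicles, had 271, 200 and 185 CPM against 39.0, 47.1 and 40.7 CPM, with 72.3, 169 and 156 CPM under vehicle. Maged2 had 113, 109 and 102 CPM against 57.9, 60.0 and 53.9 CPM, with 97.0, 86.2 and 93.6 CPM under vehicle. At all 3 genes the drug-only tumors lay below both other groups. Their log2 fold changes with all tumors were 1.28, 2.37 and 0.92, with adjusted p-values from 0.110 to 0.133.

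Other genes of this set had far larger values in irradiated replicate 1 than in its group. Cebpb, a transcription factor of inflammation and stress, had 1600.0, 228 and 212 CPM in the irradiated tumors against 70.5, 58.6 and 65.9 CPM, and the vehicle tumors had 195, 300.0 and 293 CPM. Lars2, the mitochondrial leucyl-tRNA synthetase, had 989, 368 and 311 CPM against 114, 112 and 126 CPM, and Tnni2, a fast muscle troponin, had 764, 165 and 153 CPM against 53.3, 32.6 and 51.2 CPM. In each case the 2 remaining irradiated tumors also lay above all drug-only tumors. Without irradiated replicate 1 the log2 fold changes of Cebpb, Lars2 and Tnni2 were 1.76, 1.54 and 1.81, instead of 3.39, 2.24 and 2.98. Bex3, Fdps, Selenbp1 and the predicted genes Gm13889 and Gm42418 had the same pattern. Gm42418 overlaps AY036118 on the other strand at a ribosomal RNA locus, so its 1980, 253 and 218 CPM against 109, 111 and 121 CPM were uncertain. Srxn1, which restores oxidized peroxiredoxins, Ush1g and Ndufa4l2 were also in the set, together with Camk2a and Col4a2, whose groups overlapped once irradiated replicate 1 was counted. Camk2a had 21.8 CPM in that tumor and 60.9 and 62.2 CPM in the other irradiated tumors, against 25.3 to 28.1 CPM.

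Genes were also ranked by the gap between the nearest tumors of the treated groups, among protein-coding genes with an unadjusted p under 0.05 and a mean of at least 50 counts, leaving out predicted genes such as Gm13889, Rik clones and antigen receptor segments. These genes were selected for not overlapping, so their values are a description. The 10 with the widest gap on the higher side held Kng1 and Kng2, which encode kininogens, the precursors of kinins. Kng1 had 8.7, 7.36 and 7.81 CPM in the irradiated tumors and 0 counts in all 3 drug-only tumors, which makes it at least 64.5-fold higher than the mean floor of 3 counts per library. The vehicle tumors had 0.166, 3.28 and 3.95 CPM. Kng2 had 11.4, 5.38 and 4.75 CPM against 0, 0.42 and 0.41 CPM, with 0.166, 1.26 and 1.32 CPM under vehicle. Both lie on chromosome 16, and in the drug-only tumors both were at or near the floor.

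Saa3, an acute phase protein, and Il19, a cytokine of the interleukin 10 family, were among the same 10. Saa3 had 34.7, 6.49 and 8.45 CPM against 0.661, 0.917 and 0.902 CPM, and Il19 had 14.2, 4.26 and 4.93 CPM against 0.485, 1.07 and 0.615 CPM. For both, vehicle replicates 2 and 3 (10.5 and 8.77 CPM for Saa3, 10.8 and 8.22 CPM for Il19) were as high as the irradiated tumors other than replicate 1. Gata3, a transcription factor of T cells and of sympathetic neurons, had 5.9, 6.04 and 6.8 CPM against 0.661, 0.306 and 0.328 CPM, but the vehicle tumors ranged from 0.18 to 11.4 CPM. Ndufa4l2, a mitochondrial protein induced by hypoxia, had 27.1, 13.2 and 11.4 CPM against 2.87, 2.56 and 2.21 CPM. Gzmg, a granzyme, is described with its family below. The remaining genes were Tes, Cyb561 and Pcdhgc4, which shares exons with the other genes of the protocadherin gamma cluster, so that its counts were uncertain. The log2 fold changes of the 9 genes other than Kng1 ranged from 2.37 to 5.22, and 7 of these 9 had a higher value in irradiated replicate 1 than in replicates 2 and 3.

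On the lower side the widest gaps belonged to Gpc2, Add2, Svep1, Tpsb2, Eya4, Cpa3, Lox, Capn3, Bicc1 and Cma1. Gpc2, a glypican of the developing nervous system, had 0, 0.152 and 0.457 CPM in the irradiated tumors against 11.6, 3.17 and 11.6 CPM, so it was at or near the floor after irradiation. Add2, a subunit of the membrane skeleton protein adducin, had 2.58, 2.99 and 3.2 CPM against 17.2, 22.5 and 16.5 CPM. Its log2 fold change was -2.67 ± 0.35 (adjusted p = 0.110), and the irradiated tumors were close to each other. Lox, which cross-links collagen, had 0.516, 1.62 and 1.87 CPM against 7.05, 11.1 and 7.75 CPM, and Svep1, an extracellular matrix protein, had 0.221, 0.761 and 2.28 CPM against 13.5, 13.1 and 11.5 CPM. Eya4, a transcriptional coactivator of development, had 1.11, 1.01 and 1.19 CPM against 14.2, 5.92 and 9.43 CPM, and Bicc1, an RNA-binding protein, had 2.88, 3.45 and 3.47 CPM against 17.5, 12.6 and 15.5 CPM. Irradiated replicate 1 was not far from its group at Add2, Eya4 or Bicc1.

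Tpsb2, Cpa3 and Cma1 encode a tryptase, a carboxypeptidase and a chymase of mast cells. Cpa3 had 0.885, 2.44 and 0.822 CPM in the irradiated tumors against 11.3, 16.8 and 12.3 CPM in the drug-only tumors. Tpsb2 had 2.43, 1.57 and 1.37 CPM against 11.8, 14.9 and 12.0 CPM, and Cma1 had 3.76, 1.12 and 1.0 CPM against 11.6, 18.3 and 12.3 CPM. The vehicle tumors had 0.0898 to 3.53 CPM of these 3 proteases, so the drug-only tumors stood above both other groups. The log2 fold changes were -3.27, -2.85 and -2.86, with adjusted p-values of 0.184, 0.203 and 0.225. In bulk tumors, fewer cells of a type and less RNA per cell cannot be told apart.

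**Figure D4:**
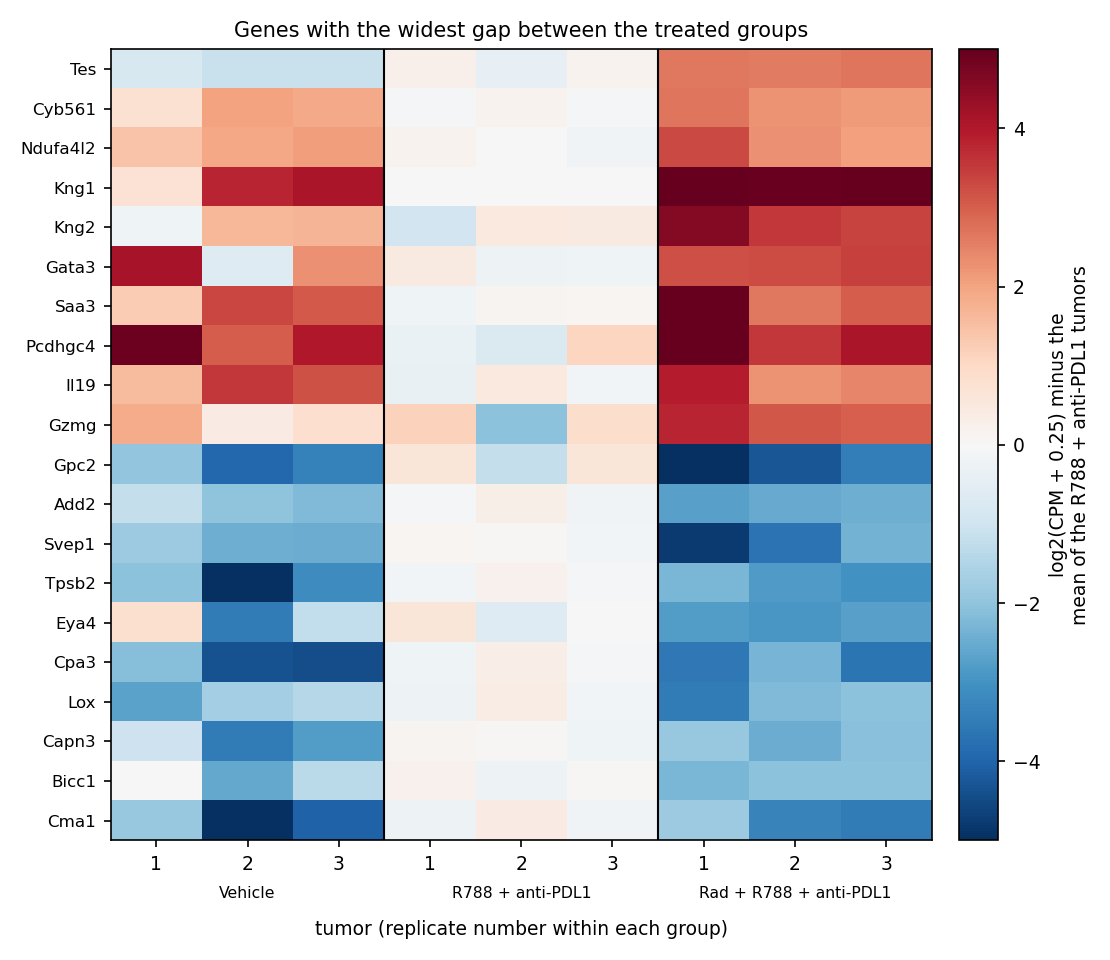
Each cell shows log2(CPM + 0.25) of a gene in a tumor minus the mean of the drug-only tumors. The 3 irradiated columns are all red in the upper 10 genes and all blue in the lower 10, which is how the genes were chosen, and vehicle columns 2 and 3 have the sign of the irradiated tumors at most of them, except at Tes in both and at Gata3 in replicate 2.

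The gene lists below are described by how many members had an unadjusted p under 0.05, to be read against 11.7% higher and 6.65% lower over all genes tested. Of 27 tested p53 targets, 2 had higher and 1 had lower values, no more than these shares would give, and the median log2 fold change was -0.08, beside 0.04 over all genes tested. Cdkn1a, the p21 inhibitor of cyclin-dependent kinases, had 24.7, 24.9 and 32.0 CPM in the irradiated tumors against 13.4, 13.0 and 10.8 CPM. These groups did not overlap, and the vehicle tumors, at 19.4, 31.2 and 27.5 CPM, were on the side of the irradiated tumors. Its log2 fold change was 1.14 ± 0.24 (adjusted p = 0.141). Phlda3, a p53-induced repressor of Akt, had 39.2, 13.8 and 16.6 CPM against 13.1, 10.3 and 11.3 CPM. Mdm2, the ubiquitin ligase of p53, had overlapping groups, with 16.4, 32.8 and 42.5 CPM against 44.0, 36.7 and 53 CPM, and Plk2 had lower values, 3.02, 10.6 and 12.6 CPM against 18.3, 24.0 and 20.1 CPM.

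Of 22 genes of DNA double-strand break repair, 3 had higher and 3 had lower values (11.7% and 6.65% over all genes), with a median of -0.10. Atm, the kinase that senses double-strand breaks, had 35.2, 37.0 and 35.0 CPM against 86.9, 57.1 and 60.2 CPM, and Brca1 had 26.8, 57.9 and 44.5 CPM against 113, 65.7 and 96.3 CPM. Both sets of values were lower in every irradiated tumor. H2afx, the histone variant phosphorylated at breaks, had 342, 147 and 127 CPM against 56.9, 117 and 72.9 CPM. The 30 genes of cell cycle and mitosis gave 2 higher and 2 lower, with a median of -0.01: Ccnb2 had 190.0, 92.6 and 85.4 CPM against 64.4, 62.1 and 60.7 CPM, whereas Mcm2, a subunit of the replicative helicase, had 93.5, 175 and 158 CPM against 253, 201 and 234 CPM. No common direction was thus seen for proliferation. Of 25 genes tied to senescence, mostly secreted factors, 6 had higher values and 1 lower (11.7% and 6.65% over all genes), with a median of 0.45. Among the 6 were genes that are not secreted: Cdkn2a, a cell cycle inhibitor, had 767, 157 and 159 CPM against 120.0, 113 and 116 CPM, and its log2 fold change of 1.63 was 0.45 without irradiated replicate 1. Lmnb1, a nuclear lamin known to be lost in senescence, had 611, 562 and 483 CPM against 204, 488 and 278 CPM. The members thus did not all go the way of the list's name. Serpine2, a protease inhibitor, was the lower one, at 5.97, 7.0 and 6.21 CPM against 23.7, 20.3 and 24.1 CPM.

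Of 20 AP-1 and immediate early genes, 6 had higher values at an unadjusted p under 0.05 and none had lower values, where 11.7% and 6.65% of all genes did. DESeq2 called 5 of the 20 genes higher (3.1% over all genes). At 7 of the 20 the irradiated tumors lay above the drug-only tumors (14.2% over all genes). The median log2 fold change was 0.32, and 0.52 without irradiated replicate 1. Dusp1, a phosphatase of MAP kinases, had 31.3, 26.1 and 35.9 CPM against 14.6, 13.5 and 13.0 CPM (log2 fold change 1.19 ± 0.21, adjusted p = 0.133). Fos had 18.4, 28.6 and 37.1 CPM against 14.8, 15.1 and 13.9 CPM, and Junb had 187, 80.9 and 91.7 CPM against 48.5, 40.1 and 45.3 CPM. Irradiated replicate 1 was the lowest of its group at Fos and the highest at Junb, Jund and Ier2. Fos in the vehicle tumors was 25.3, 43.0 and 39.2 CPM, also above the drug-only tumors. Of 20 genes of the unfolded protein and stress response, 5 had higher and 2 lower values (11.7% and 6.65% over all genes), with a median of 0.16. Xbp1, a transcription factor of that response, had 59.6, 57.4 and 71.6 CPM against 39.1, 41.0 and 39.7 CPM, and its groups were tight.

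Among 26 genes of hypoxia and glycolysis, 6 had higher and 2 had lower values (11.7% and 6.65% over all genes), with a median of 0.30. Car9, a carbonic anhydrase induced by low oxygen, had 50.7, 72.6 and 62.9 CPM against 22.7, 8.83 and 18.5 CPM (1.90 ± 0.37, adjusted p = 0.135). Eno1, a glycolytic enolase, had 4860, 3380 and 2830 CPM against 1900, 1470 and 1710 CPM, and Pdk1, which turns pyruvate away from mitochondria, had 295, 262 and 249 CPM against 173, 187 and 177 CPM. All irradiated tumors lay above all drug-only tumors at these 3 genes. The vehicle tumors had 19.6 to 37.1 CPM of Car9, 2550 to 3220 CPM of Eno1 and 351 to 430 CPM of Pdk1. At Pdk1 they lay above both treated groups. Drug-only replicate 2 was the lowest at Car9 and Eno1, and its median over the list was -0.71 against 0.48 and 0.21 in the other drug-only tumors. Kdm3a, a histone demethylase also induced by hypoxia, had 37.1, 56.8 and 60.1 CPM against 107, 79.3 and 99.1 CPM, opposite to Car9. The median was 0.05 without irradiated replicate 1.

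The interferon and antigen presentation lists had higher medians, which rested on irradiated replicate 3. The type I interferon response (25 genes) had a median log2 fold change of 1.04, with 7 genes higher at an unadjusted p under 0.05 and none lower (11.7% and 6.65% over all genes). By tumor, its median deviation from the drug-only mean was -0.03 and -0.04 in irradiated replicates 1 and 2 and 1.89 in replicate 3, and without replicate 3 the median fold change was -0.05. The IFN gamma response (22 genes, median 0.49), MHC class I presentation (19 genes, 0.61) and MHC class II presentation (10 genes, 0.89) moved to -0.05, -0.21 and -0.23 without that tumor. H2-Eb1, an MHC class II beta chain, had 53.7, 22.4 and 199 CPM against 15.2, 78.8 and 38.2 CPM, so that the groups overlapped. A few members were higher in all 3 irradiated tumors. Isg20, an exonuclease induced by interferon, had 9.37, 4.31 and 5.71 CPM against 2.12, 1.53 and 2.01 CPM (1.77 ± 0.41, adjusted p = 0.170), and Oas1a, a sensor of double-stranded RNA, had 13.1, 6.6 and 20.4 CPM against 4.01, 5.31 and 4.47 CPM.

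In the list of cytosolic nucleic acid sensing (14 genes, median 0.14), 2 genes had higher values. Tmem173, which encodes STING, had 36.4, 36.4 and 42.4 CPM against 15.8, 28.5 and 17.3 CPM, and Trex1, a nuclease of cytosolic DNA, had 21.8, 8.63 and 15.5 CPM against 7.36, 7.91 and 6.15 CPM. At both genes the irradiated tumors lay above the drug-only tumors. Irf7, which amplifies the interferon response, had 4.2, 3.4 and 49.9 CPM against 4.63, 7.22 and 4.75 CPM and was high in irradiated replicate 3 only. Socs1 and Igtp, targets of IFN gamma, were higher in all 3 irradiated tumors. Socs1 had 21.6, 21 and 19.4 CPM against 7.5, 12.3 and 9.47 CPM, and Igtp had 16.1, 13.8 and 20.4 CPM against 8.86, 7.38 and 7.01 CPM. Irradiated replicate 3 was the lowest of its group at Socs1 and the highest at Igtp, whose log2 fold change of 1.11 was 0.94 without it.

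Several T cell transcripts, among them those of the CD3 and CD8 chains, were scarce in all tumors but irradiated replicate 3. Only 10 of 23 T cell markers had enough counts for a test, and 0 of them had an unadjusted p under 0.05. Cd8b1, a chain of the CD8 co-receptor, had 0, 0 and 62 counts in irradiated replicates 1 to 3 and 0, 6 and 7 counts in the drug-only tumors. Pdcd1, which encodes PD-1, had 4, 8 and 68 counts against 6, 11 and 11, and Foxp3, the factor of regulatory T cells, had 0, 9 and 60 counts against 8, 7 and 9. Other members did not have this pattern. Cd4, which macrophages can also express, had 17, 105 and 382 counts against 519, 53 and 298, and Lck, a kinase of T cell receptor signaling, had 55, 92 and 196 counts against 136, 257 and 93. Tcf7, a factor of T cells and of Wnt signaling, had 347, 879 and 860 counts against 1193, 974 and 1177. The median over the tested T cell genes was 0.57 with all tumors and -0.39 without irradiated replicate 3. The 23 macrophage markers showed the same order, with per-tumor medians of -0.68, -0.84 and 1.44 in the irradiated tumors and fold change medians of 0.44 and, without replicate 3, -0.79. Lists of macrophage genes described as suppressive (16 genes, median -0.10) or stimulatory (15 genes, 0.44) lay at -0.71 and -0.19 without it.

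In the cluster on chromosome 14, 5 granzymes, proteases of activated cytotoxic lymphocytes, did not follow the T cell markers. Gzmd had 16.6, 9.94 and 9.91 CPM in the irradiated tumors against 3.97, 0.688 and 3.07 CPM, and Gzmc had 26.8, 11.6 and 11 CPM against 6.48, 1.41 and 4.84 CPM. Gzme had 4.28, 3.1 and 3.84 CPM against 1.23, 0.153 and 0.369 CPM, Gzmf had 7.15, 5.94 and 6.53 CPM against 3.57, 0.803 and 1.76 CPM, and Gzmg had 16.4, 9.89 and 9.13 CPM against 2.38, 0.0382 and 1.93 CPM. All 3 irradiated tumors lay above all drug-only tumors at these 5 genes, and irradiated replicate 3, with the most T cell counts, was not the highest at any of them. Their log2 fold changes ran from 1.68 to 3.03 with all tumors, with an edgeR adjusted p of 0.222 at each gene. Without irradiated replicate 1 they stayed between 1.43 and 2.73, with adjusted p-values from 0.222 to 0.257. These genes are near copies of each other, so reads may have been split between them. The vehicle tumors had 1.3 to 4.58 CPM of Gzmd and 4.89 to 8.83 CPM of Gzmc. Cd8a, in contrast, had 0, 0.152 and 4.48 CPM against 0.397, 0.955 and 0.246 CPM. Gzmb, of the same cluster, also overlapped, with 3.91, 4.67 and 7.03 CPM against 3.44, 7.34 and 5.53 CPM. Gzma, on chromosome 13, had 2.29, 0.457 and 1.42 CPM against 1.19, 8.06 and 2.54 CPM. Prf1, which encodes perforin, was higher in all 3 irradiated tumors, whereas Nkg7, Klrb1c and Klrd1 overlapped and Ncr1 was lower in all 3.

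Of 15 neutrophil markers only 6 could be tested, and Ly6g, which defines these cells in mice, had 0 counts in all 9 libraries. Of the 6, 3 had higher values (11.7% over all genes), with a median of 1.74. Lcn2, a siderophore-binding protein, had 4.13, 2.59 and 2.51 CPM against 0.0882, 0.191 and 0.164 CPM (4.31 ± 0.69, adjusted p = 0.133), and the drug-only tumors were at or near the floor. S100a8 and S100a9, which form calprotectin, had 0.558 to 1.11 and 0.664 to 1.19 CPM against 0.164 to 0.344 and 0.0882 to 0.382 CPM, which rest on 2 to 26 counts a library. The vehicle tumors had 0.607, 3.37 and 1.64 CPM of S100a8 and 0.883, 2.74 and 4.0 CPM of S100a9, also above the drug-only tumors. Cxcr2, a chemokine receptor, and Mmp8, a collagenase, had log2 fold changes of 0.18 and -0.99. Csf3r, the receptor of G-CSF, was high in irradiated replicate 3 only, at 13.7 CPM against 0.369 and 0.913 CPM in the others. The 13 dendritic cell genes (median -0.13) and the 6 tested genes of B and plasma cells (0.06) showed no common direction.

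**Figure D5:**
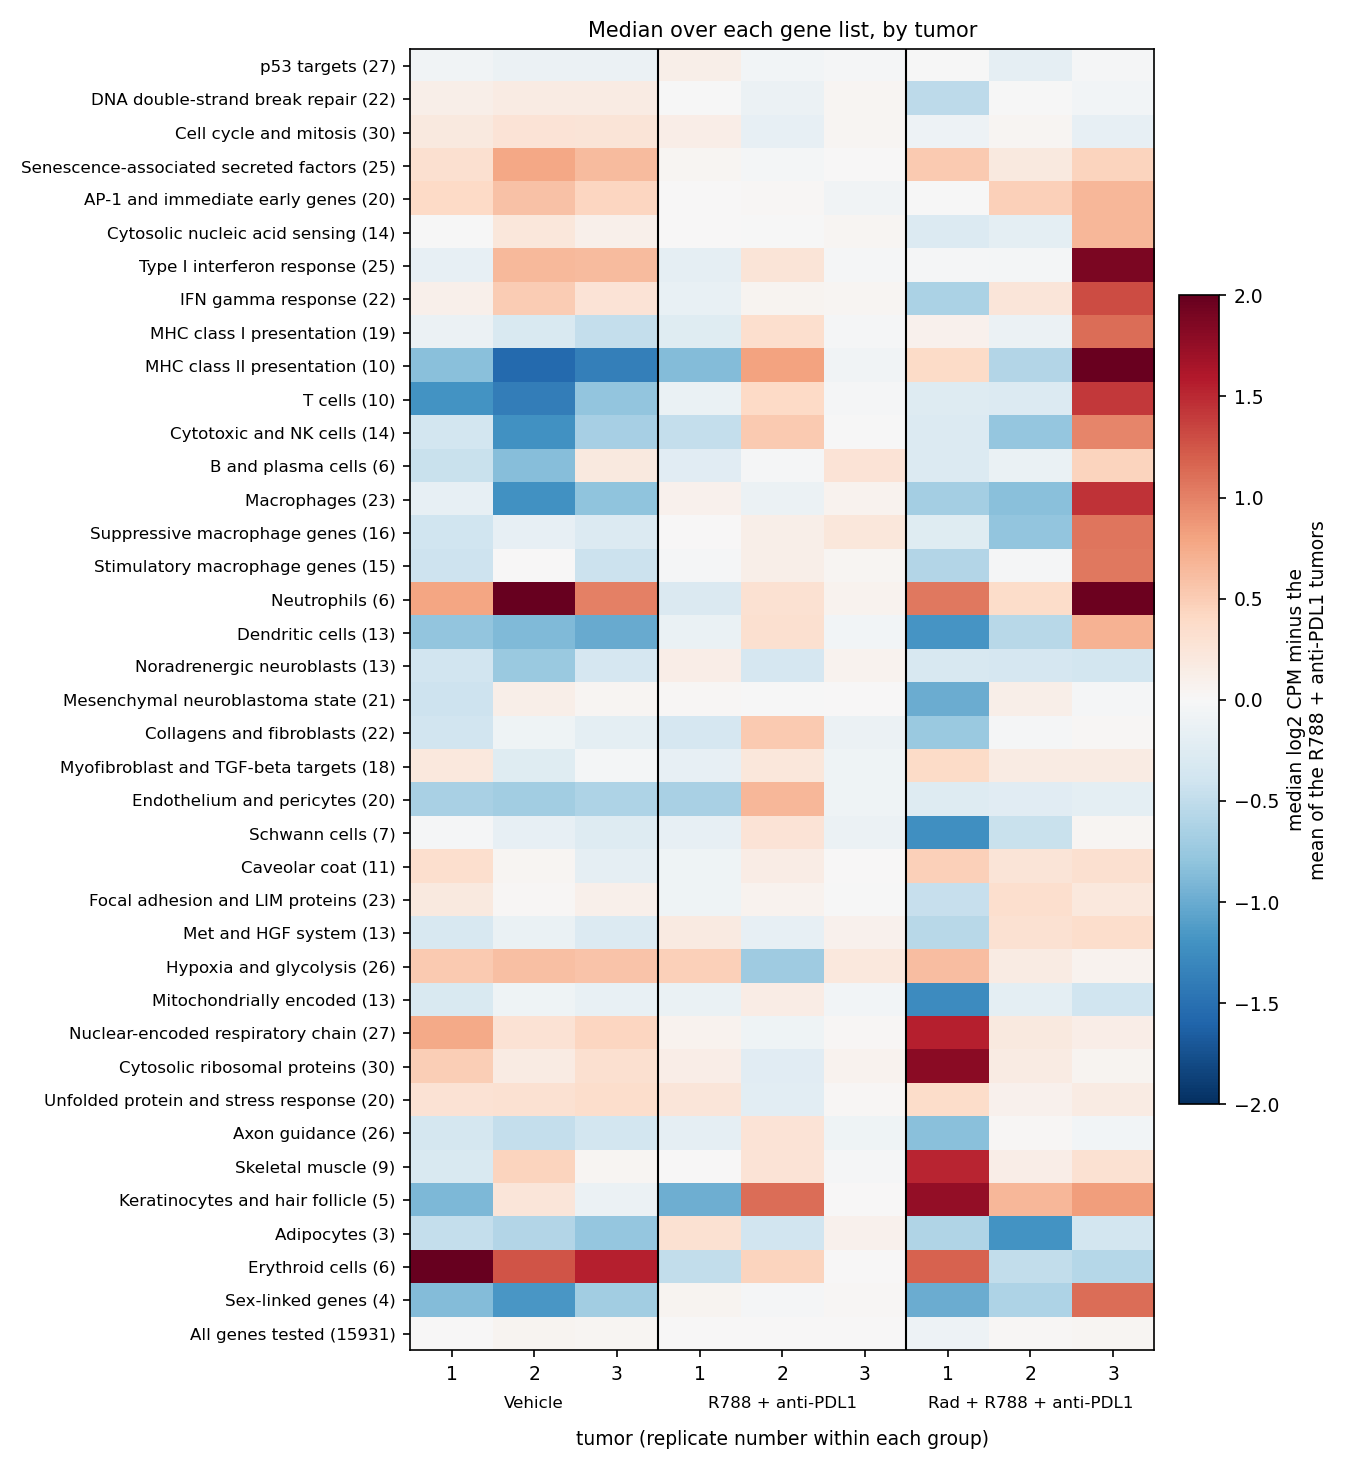
Each cell shows the median over the tested members of a list (their number in parentheses) of the log2 CPM minus the mean of the drug-only tumors, with colors capped at 2. Immune lists are red in irradiated replicate 3, ribosomal and respiratory chain lists in irradiated replicate 1, and few lists have the same color in all 3 irradiated tumors.

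Among tumor cell and stroma lists, the 13 tested noradrenergic genes had a median of -0.47, with 1 gene higher and 4 lower. Tbx2, a T-box factor, had 25.8, 25.9 and 22.3 CPM against 77.2, 34.7 and 70.2 CPM, and Isl1 had 1.03, 1.37 and 0.959 CPM against 3.53, 1.83 and 2.58 CPM, with 0 counts in all vehicle tumors. The 21 genes of the mesenchymal state had a median of -0.19 and went both ways. Vim, which encodes vimentin, had 1480, 880.0 and 835 CPM against 569, 500.0 and 544 CPM, whereas Prrx1 had 38.8, 59.9 and 58.5 CPM against 193, 90.7 and 153 CPM and Runx2 had 11.3, 17.3 and 15.4 CPM against 42.8, 21.1 and 33.6 CPM. The groups did not overlap at these 3 genes, and drug-only replicate 2 was nearest to the irradiated tumors at both Prrx1 and Runx2.

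The 22 genes of collagens and fibroblasts (median -0.24) gave 2 higher and 2 lower. Fap, a fibroblast protease, had 15.7, 10.9 and 12.9 CPM against 7.63, 7.64 and 5.94 CPM, while Col1a2 had 19.3, 41.6 and 43.1 CPM against 37.7, 195 and 78.0 CPM. Of 18 myofibroblast and TGF-beta genes (median 0.23), 2 were higher and 3 lower. Acta2, smooth muscle actin, had 14.2, 7.97 and 9.59 CPM against 28.7, 27.2 and 27.4 CPM (-1.39 ± 0.30, adjusted p = 0.156), with 13.9, 7.54 and 9.21 CPM under vehicle. Its drug-only values were close to each other and above both other groups. The 20 genes of endothelium and pericytes (median -0.41) were high in drug-only replicate 2, as with Kdr, a VEGF receptor, at 10.7, 26.9 and 16.5 CPM in the drug-only tumors and 4.94, 10.7 and 12.1 CPM in the irradiated tumors. The 7 tested Schwann cell genes had a median of -0.18 with 1 gene higher (Pmp22, a myelin protein, 103, 122 and 116 CPM against 59.3, 80.5 and 60.8 CPM) and 1 lower. The 26 axon guidance genes had a median of -0.25, with Sema3a, a repulsive cue for axons, at 9.15, 22.3 and 19.4 CPM against 33.6, 53.1 and 43.4 CPM.

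The list around caveolae held 11 genes, of which 4 had higher values at an unadjusted p under 0.05 and none had lower values (11.7% and 6.65% over all genes), with a median of 0.14. Beside Cav1 and Cav2 these were Cav3, the muscle caveolin, at 8.11, 2.13 and 3.06 CPM against 0.22, 1.07 and 0.656 CPM, and Pacsin3, which bends membranes, at 36.8, 16.1 and 18.1 CPM against 14.9, 10.0 and 13.5 CPM. Cavin2, a coat component, had lower values instead, 68.0, 79.1 and 74.8 CPM against 90.9, 151 and 101 CPM, with an unadjusted p above 0.05. Of 23 focal adhesion and LIM proteins (median 0.13), 5 had higher values and 1 lower (11.7% and 6.65% over all genes), and Tes had the largest fold change. Vasp, which promotes actin assembly, had 90.6, 84.0 and 97.5 CPM against 63.9, 58.7 and 66.2 CPM. In the system of Met and its ligand (13 genes, median 0.07), Met and Spint1, an inhibitor of the ligand's activating protease, had higher values, and Spint1 was near the floor in most tumors.

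Lists of housekeeping genes differed in irradiated replicate 1 mainly. All 30 cytosolic ribosomal protein genes had positive log2 fold changes, with a median of 0.87, but the per-tumor medians were 1.81, 0.16 and 0.06 and the median without that tumor was 0.12. Rps4x had 6130, 1830 and 1680 CPM in the irradiated tumors against 1330, 907 and 1200 CPM. Of 27 nuclear-encoded respiratory chain genes, 14 had higher values, where 11.7% of all genes did (median 0.79, and 0.18 without irradiated replicate 1). Ndufa2, a subunit of complex I, had 601, 80.4 and 98.9 CPM against 38.8, 57.3 and 48.9 CPM. With the length trend removed the medians were 0.52 and 0.68. The 13 mitochondrially encoded genes had a median of -0.51 and per-tumor medians of -1.26, -0.2 and -0.4. Here mt-Co1, a subunit of cytochrome c oxidase, had 1460, 8350 and 7550 CPM against 8560, 12900 and 9470 CPM, so irradiated replicate 1 was far below the rest.

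Markers of tissue next to a tumor also varied between tumors. The summed level of 15 skeletal muscle genes was 915, 242 and 222 CPM in the irradiated tumors, 93.4 to 101 CPM in the drug-only tumors and 159 to 201 CPM in the vehicle tumors. Tnni2, described above, made up most of it in the irradiated tumors. Des, the muscle intermediate filament, had 120.0, 65.1 and 57.5 CPM against 35.1, 45.9 and 34.2 CPM. The other members had 10.9 CPM or less in every tumor and went both ways. Ckm had a log2 fold change of 1.62 and Actn3 of -1.55. Acta1 and Myh1 had only 2 to 11 counts in the treated tumors. Keratinocyte genes summed to 57.9 to 105 CPM in the irradiated tumors and 7.05 to 74.2 CPM in the drug-only tumors. Except in drug-only replicate 1, most of this came from Krt5, a keratin of basal skin cells. It had 75, 54.1 and 46.5 CPM against 1.9, 63.1 and 22.7 CPM. Sfn had 27.3, 7.41 and 8.49 CPM against 4.1, 6.15 and 4.18 CPM. Other members were scarce, and Krt14, another skin keratin, had 0, 2 and 0 counts against 0, 0 and 0. Erythroid genes summed to 58.5 to 199 CPM against 62.7 to 118 CPM, and adipocyte genes to 93.0 to 138 CPM against 146 to 228 CPM. Lpl, a lipase that other cells also express, made up most of the adipocyte sum (105, 81.0 and 124 CPM against 197, 122 and 168 CPM), while Adipoq and Lep had 0 to 3 counts. The 4 tested sex-linked genes overlapped between the groups. The part of adjacent tissue in the results above was not tested.

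The targets of both drugs did not separate the groups. Syk had 15.3, 13.4 and 48.5 CPM in the irradiated tumors against 30.3, 24.8 and 31.4 CPM, and Cd274, which encodes PD-L1, had 1.62, 2.64 and 7.95 CPM against 5.34, 2.37 and 4.55 CPM. Irradiated replicate 3 was the highest at both, and the log2 fold changes were -0.16 ± 0.45 and 0.00 ± 0.61. Mycn gave -0.65 ± 0.28 (adjusted p = 0.265) with overlapping groups. Arg1, an arginase of suppressive macrophages, had 1.18, 1.88 and 2.42 CPM against 19.8, 0.153 and 14.3 CPM, so drug-only replicate 2 lay below all irradiated tumors, and its log2 fold change was -2.62 ± 1.07 (adjusted p = 0.252).

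Exons of several genes named here overlap a gene on the other strand (Tes, Nr2f2, Cyb561, Ndufa4l2, Cebpb, Junb, Jund, Dusp1, Cdkn1a, Add2, Svep1, Bicc1, Lox, Car9 and Runx2 among them) or on the same strand (Gpc2, Capn3, Gata3, Fdps, Gm13889, Trex1 and Igtp among them), and the strandedness of the libraries was not given in the sources used here. Counts at these genes were uncertain to that extent.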

How the data were processed

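RNA from whole tumors was sequenced after polyA selection. The authors aligned reads to mm10 and quantified genes with STAR 2.6.1d and Salmon 1.4.0, per the submitters' processing notes, which also name SAMtools 1.9, Picard 2.26 and MultiQC 1.11. They deposited a table of estimated counts per gene symbol for 9 libraries, not normalized. The labels and the study's methods differ on the read layout, and the extraction text names cultured macrophages although the tissue is given as whole tumor.

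Estimated counts entered edgeR and limma as they were in the table, and any decimals were dropped for DESeq2. Genes that passed filterByExpr (minimum count 10) were tested in R 4.3.3 with edgeR 4.0.16 (TMM scaling, robust quasi-likelihood F test, two-sided, Benjamini-Hochberg adjustment over 15931 genes). All 9 libraries entered the fit, with a coefficient per group, so that vehicle tumors helped to estimate the spread. Fold changes are log2 with the SE of the fit. DESeq2 1.42.0 and limma 3.58.1 (voom) served as alternatives, together with other scalings, filters and left-out libraries. Procedures were tested on simulated data. Positions and overlaps came from GENCODE M21 on GRCm38, to which 53851 of 54429 symbols matched (98.9%). Promoter sequences came from RefSeq on GRCm38.p6. The 38 gene lists, the genes named whatever their values and the comparison itself were chosen with earlier results of these data known. Named genes were those called with all libraries or without irradiated replicate 1 (mean of at least 50 counts), the 10 on each side with the widest gap (without antigen receptor segments, Rik clones or predicted genes), up to 4 members of each list with the lowest p, and 12 fixed genes. Hand2, Ier2, Kdm3a, Cavin2, further members of the T cell, neutrophil, adipocyte and senescence lists, the mast cell genes described as other observations and the neighbours of Tes were named after their values were seen. Results for some genes are not reported here.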

Additional observations from a re-analysis of the deposited data

How the results depend on the processing

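The count of genes called (1 with edgeR on all 9 libraries) varied with the tool and with the libraries used. DESeq2 gave 823, and the count was 8 with limma-voom, 3080 with limma-voom and sample quality weights, and 24 with no filter on low counts. It was 1 with RLE or upper-quartile scaling, with at least 10 counts in each of the 6 libraries and with the length trend removed, an alternative added after seeing the data. Only the 6 libraries compared gave 0 calls, with 1908 unadjusted p-values under 0.05. Leaving out a library in edgeR gave 0 to 21 calls: 21 without irradiated replicate 1, 4 without vehicle replicate 1, 1 without irradiated replicate 3, where the gene was not Tes, and 0 without any of the other 6 libraries, with 1473 to 3612 unadjusted p-values under 0.05. DESeq2 gave 865 calls without irradiated replicate 1 and 1989 without irradiated replicate 3, the latter added after seeing the data. The cause of these differences was not tested. The adjusted p of Tes was 0.119 with only the 6 libraries compared, and between 0.0587 and 0.295 in the 7 leave-one-out fits in which its call was lost.

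The replicate numbers in the titles are shared between groups, but nothing says that they pair tumors. Deviations of same-numbered tumors correlated at 0.056, -0.009 and 0.012, and irradiated replicates 2 and 3 did not correlate best with their own number. With the replicate block 0 genes were called (2788 unadjusted p-values under 0.05) and the adjusted p of Tes was 0.0925.

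For genes whose groups do not overlap, the count of 4365 became 4369 with RLE scaling, 3844 with the stricter filter and 5097 with none. Of 3802 values of named genes under alternatives, 3402 stayed on their side of the threshold, 391 passed it and 9, all of Tes, no longer did. Of 798 list medians under alternatives 59 moved, among them the interferon and MHC medians without irradiated replicate 3. Genes under about 10 counts were beyond the depth of these libraries. Many T cell markers had so few counts in most tumors, but not in irradiated replicate 3.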

Other observations

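Because Tpsb2, Cpa3 and Cma1 stood among the genes with the widest gap on the lower side, 16 genes known from mast cells were written down after those values had been seen, and 13 of them had enough counts for a test. These cells store proteases and histamine in granules and carry the high-affinity IgE receptor. At 10 of the 13 genes the 3 irradiated tumors lay below the 3 drug-only tumors, where 13.2% of all genes tested did. At none did they lie above them (14.2% of all genes), and the median log2 fold change was -2.52. DESeq2 called 6 of them lower (2.07% over all genes), and edgeR called 0, with no adjusted p under 0.180. As the genes were chosen for this pattern, these values are a description.

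Mcpt4, a chymase, had 4.94, 1.83 and 1.55 CPM in irradiated replicates 1 to 3, 13.8, 25.6 and 16.5 CPM in the drug-only tumors and 3.48, 0.18 and 0.822 CPM in the vehicle tumors. Mrgprb1, a receptor of connective tissue mast cells, had 0.0738, 0.152 and 0.0457 CPM against 2.73, 2.22 and 2.38 CPM, so the irradiated tumors were at or under the floor of 3 counts. Hdc, which makes histamine, had 0.664, 0.761 and 0.502 CPM against 2.34, 3.17 and 1.6 CPM. Kit, the receptor of stem cell factor, had 2.07, 1.47 and 1.6 CPM against 2.65, 3.71 and 3.52 CPM, a smaller difference. Gata2, Il1rl1 and Srgn, which other cells also express, overlapped between the groups.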
